A study of Mus musculus with 13 samples.

Results

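An interferon response module of 30 genes was followed in mouse eosinophils of the small intestinal lamina propria. The members were 22 targets and regulators of the type I interferon response and 8 guanylate-binding proteins, and each was taken as the brightest probe set that names it. All 30 were measured in both deposited tables, out of 21395 genes in the table of reporter mice and 25005 genes in the table of the other mice. Per the labels, 5 samples were mCherry+ and 5 were mCherry- eosinophils of mice with an mCherry knock-in at Clec4a4, an inhibitory C-type lectin receptor, and no label describes what else the allele alters. A second table held 1 array each of Clec4a4- eosinophils of Ahr KO mice, Clec4a4+ eosinophils of WT mice and Clec4a4- eosinophils of WT mice. Ahr encodes the aryl hydrocarbon receptor, which responds to small molecules from food and microbes. The labels give no age, strain, sex or pooling, and do not say whether the KO was limited to a cell type. Titles number the reporter samples as biological replicates without naming a mouse. The p-values therefore measure only the spread between these samples, whose technical part is not known.

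As background, type I interferons bind the receptor of IFNAR1 and IFNAR2 chains, and the kinases JAK1 and TYK2 then activate STAT2, which joins IRF9 in a complex that binds interferon-stimulated response elements. Interferon gamma signals through IFNGR1 and IFNGR2 and acts on gamma-activated sites. The targets include antiviral effectors, RNA sensors and the guanylate-binding proteins, large GTPases that attack the vacuoles and membranes of intracellular microbes. In bulk samples such as these, fewer cells of a type and less RNA per cell cannot be told apart.

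All values are log2 intensities. Over all genes, array medians were 5.32 to 5.39 in the reporter table and 4.79 to 4.82 in the second table, and the number of arrays limits the precision. Each table has its own array model and normalization, so values are compared only within a table. Clec4a4 stood at 9.86, 9.50, 9.43, 8.29 and 8.83 on the mCherry+ arrays of numbers 1 to 5 and at 7.93, 7.70, 7.81, 6.42 and 7.77 on the mCherry- arrays, with no overlap. Its difference was 1.66, with a limma adjusted p of 0.0804, and 0.00205 with the replicate number as a block. The fit without the block thus did not call the gene of the sort, so a gene not called there is not shown to be unchanged. Of 15 eosinophil markers, Ccr3 lay between 9.42 and 11.34 on the reporter arrays, but Epx, between 4.31 and 4.89, was below the median of all genes (5.36) on each of them. On mCherry+ arrays 6 to 7 of the 15 were below it, against 2 to 5 on mCherry- arrays. The list mean was 7.13, 6.85, 7.08, 6.52 and 6.92 on the mCherry+ arrays 1 to 5 and 7.76, 7.37, 7.40, 6.67 and 7.25 on the mCherry- arrays, lower in every pair. Ear6 was called lower in mCherry+ cells (5.02 ± 0.22 in mCherry+ and 7.89 ± 0.79 in mCherry- cells, SD, n = 5 each), and with the block so were Ear1, Ear2 and Prg2. The list mean does not stand for every marker. Siglecf and Il5ra were higher in mCherry+ cells in 4 of 5 pairs each, by 0.38 (SE 0.27) and 0.46 (SE 0.33), with neither called. By the sign of the mean Ccr3, Epx and Cebpe were higher too, while Prg3, Alox15, Csf2rb, Gata1, Il1rl1 and Adgre1 were lower. For Adgre1 the difference was -0.0024, close to none. Without the arrays numbered 1, Il1rl1 and Csf2rb changed sign, to 0.06 and 0.02, and Alox15 differed by -0.06 and Gata1 by -0.15. The part of these markers in the differences below was not tested. The mean of 20 epithelial markers was 8.32 on mCherry+ 1 and 8.02 on mCherry- 1, and between 9.97 and 10.82 on the other 8 reporter arrays. On every reporter array it was above the eosinophil list mean, and it was lowest on the arrays numbered 1. The part of epithelial transcripts in the differences below was not tested. The arrays numbered 1 stood apart, so values that move by over 1.5 times without them are also given without them. Of 10 neutrophil markers, S100a8 and S100a9 were called lower in mCherry+ cells (S100a8 5.41 ± 0.76 in mCherry+ and 10.69 ± 1.05 in mCherry- cells, SD, n = 5 each), while Ly6g, which defines neutrophils, lay between 3.29 and 3.48 in mCherry+ and between 3.17 and 3.80 in mCherry- cells, far below the median.

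The module did not move as 1 block between mCherry+ and mCherry- eosinophils. The median difference over the 30 members (mCherry+ minus mCherry-) was 0.03, against -0.01 over all genes, and 15 members were higher and 15 lower by the sign of the mean (all genes: 47.6% higher and 52.4% lower). With limma, an adjusted p under 0.05 was reached by 0 members in either direction, where 0.145% of all genes were called higher and 0.21% lower. At an unadjusted p under 0.05, 6 members were higher (Stat2, Xaf1, Rtp4, Gbp4, Gbp6 and Gbp8) and 2 lower (Gbp2 and Gbp3), against a background of 3.8% higher and 3.52% lower (with the block 7 and 2, against 6.25% and 5.59%). With the replicate number as a block, 1 member, Gbp4, was called higher and 0 lower, where the background was 1.01% higher and 0.748% lower. The SEs printed without the block include the spread between numbers. For Ifit1 the SE was 0.43 without the block and 0.23 with it, while for Ifi44 it was 0.224 and 0.245. Without the arrays numbered 1 the member median was also 0.03, Stat2 differed by 0.67 and Gbp2 by -0.69. The widest differences in both directions belonged to guanylate-binding proteins, with 1.06 for Gbp4 and -0.75 for Gbp2.

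The 22 other members had a median difference of -0.01 (0.0001 without the arrays numbered 1) and ranged from -0.37 for Ifit3 to 0.77 for Stat2. Of all 30 members, 4 were higher in every same-numbered pair (Stat2, Xaf1, Rtp4 and Gbp4) and 1 was lower in every pair (Gbp3), where 5.97% of all genes were higher and 5.95% lower in every pair. The sort took a median of 13.6% of a member's sum of squares over the 10 arrays and the replicate number 46.6%, against 6.34% and 53.0% over all genes. The number has 4 degrees of freedom and the sort 1, so the shares do not say which had the larger effect.

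**Figure D1:**
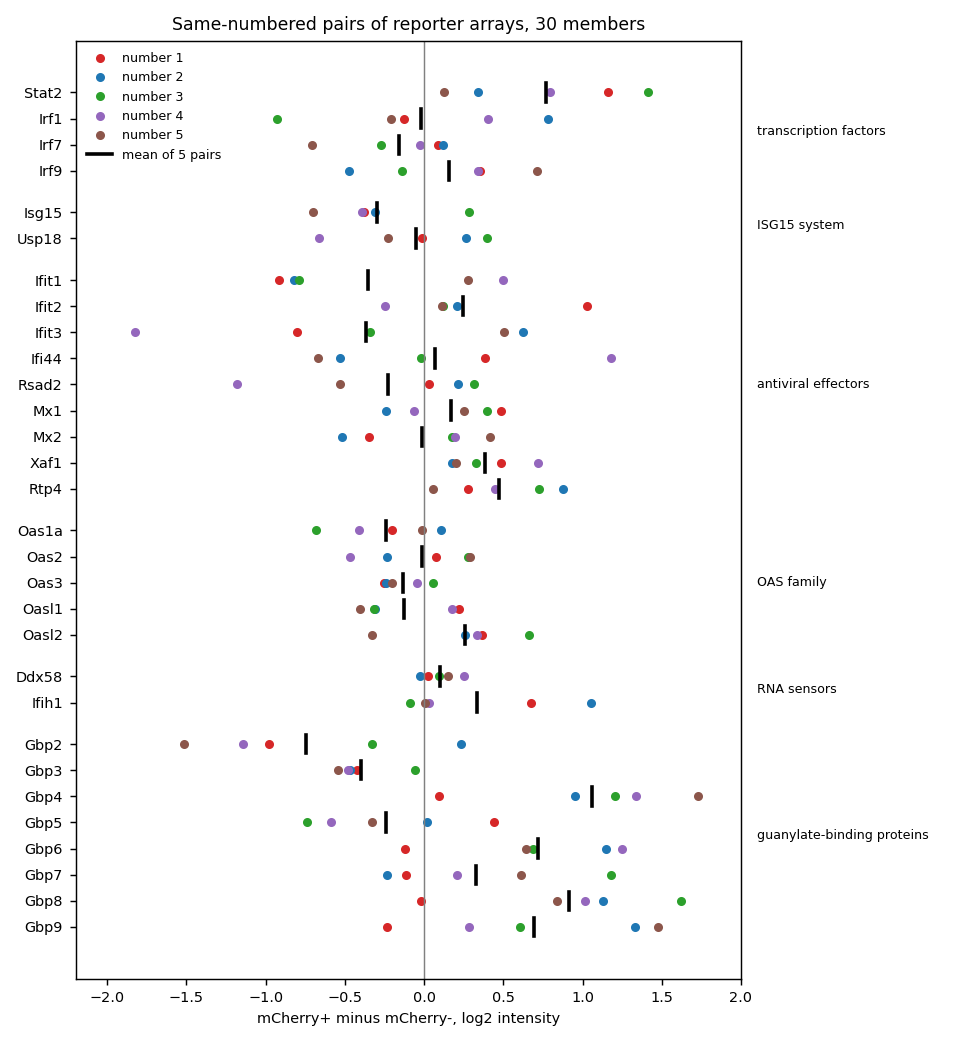
Difference in log2 intensity, mCherry+ minus mCherry-, for each of the 5 same-numbered pairs of reporter arrays (coloured points) and their mean (black bar), for the 30 members grouped by role. The means of Gbp4, Gbp6, Gbp8 and Gbp9 lie between 0.69 and 1.06 with number 1 the lowest pair of each, while most other members scatter on both sides of 0.

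Among the transcription factors, Stat2, the partner of IRF9, stood at 6.73, 7.05, 7.38, 6.85 and 6.61 on the mCherry+ arrays 1 to 5 and at 5.57, 6.70, 5.97, 6.06 and 6.48 on the mCherry- arrays. Every mCherry+ array was above its same-numbered mCherry- array, but the groups overlapped, since mCherry- 2 reached the mCherry+ range. The difference was 0.77 (SE 0.23), 1.7-fold, with a limma adjusted p of 0.331 (0.139 with the block). Irf9 averaged 6.05 ± 0.49 in mCherry+ and 5.89 ± 0.17 in mCherry- cells (SD, n = 5 each), a difference of 0.16 (SE 0.22). Irf7, which drives interferon production, differed by -0.16 (SE 0.20) and Irf1, a factor induced by interferon gamma, by -0.02 (SE 0.28). Without the arrays numbered 1, Irf1 differed by 0.01. Irf1 has a second, dimmer probe set, which lay between 6.36 and 7.56 on the mCherry+ arrays and between 6.29 and 7.41 on the mCherry- arrays and overlapped as well.

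Isg15, a ubiquitin-like protein attached to other proteins during the response, was at 7.29, 7.16, 7.19, 7.07 and 6.54 in mCherry+ and 7.66, 7.47, 6.91, 7.46 and 7.24 in mCherry- cells, lower in 4 of 5 pairs. Its difference was -0.30 (SE 0.19, limma adjusted p = 0.845). Usp18, the protease that removes ISG15 and also restrains the type I receptor, differed by -0.05 (SE 0.21). The groups overlapped for both genes.

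The 9 antiviral effectors split 5 higher and 4 lower, with 0 past the test. Xaf1, a factor that promotes cell death, stood at 6.38, 6.06, 6.46, 6.52 and 5.99 in mCherry+ and at 5.89, 5.88, 6.13, 5.80 and 5.79 in mCherry- cells. Rtp4, which restrains flaviviruses, stood at 6.29, 6.28, 6.43, 6.49 and 5.96 in mCherry+ and at 6.02, 5.41, 5.71, 6.04 and 5.91 in mCherry- cells. Both were higher in every pair, by 0.38 (SE 0.14, limma adjusted p = 0.514, and 0.279 with the block) and 0.48 (SE 0.16, adjusted p = 0.428, and 0.233 with the block). For both, 1 or more mCherry- arrays lay within the mCherry+ range.

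The RNA-binding Ifit proteins went both ways: Ifit1 differed by -0.35 (SE 0.43), Ifit2 by 0.24 (SE 0.17) and Ifit3 by -0.37 (SE 0.32). Without the arrays numbered 1, Ifit1 differed by -0.21 and Ifit2 by 0.05. Ifit1 ranged from 3.55 on mCherry+ 1 to 6.20 on mCherry+ 4, an SD of 1.03 within mCherry+ cells. Rsad2, or viperin, was between 4.95 and 5.31 in mCherry+ cells, and mCherry- 4 at 6.49 stood above the other mCherry- arrays, which lay between 4.82 and 5.70. Ifi44, Mx1 and Mx2 averaged between 2.95 and 4.38 in both groups, under the median of all genes, so these values may be background. Ifit2 (3.31 in mCherry+ and 3.06 in mCherry- cells) and Ifit1 (4.64 in mCherry+ and 4.99 in mCherry- cells) also averaged under that median, so their directions are uncertain. In all, 12 of the 30 members had a mean below that median.

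The OAS family makes oligoadenylates that activate RNase L, and the OAS-like proteins are its relatives. Of its 5 members, 1 was higher (Oasl2, 0.26, SE 0.22) and 4 were lower by the sign of the mean, between -0.24 for Oas1a and -0.01 for Oas2, with 0 past the test. Oas2 differed by -0.03 without the arrays numbered 1. Oasl1, which in mice holds back translation of Irf7, differed by -0.13 (SE 0.28), and by -0.21 without the arrays numbered 1. The RNA sensors Ddx58, or RIG-I, and Ifih1, or MDA5, differed by 0.10 (SE 0.17) and 0.34 (SE 0.23). Ifih1 was lowest on mCherry- 2 at 5.96 and mCherry- 1 at 6.48, and the other 3 mCherry- arrays, between 6.73 and 7.19, were at mCherry+ levels (6.73 to 7.22).

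Of the 8 guanylate-binding proteins, 5 were higher and 3 lower by the sign of the mean, with 0 past the test without the block. They are given by chromosome, a grouping chosen after their values were seen. Gbp4, Gbp6, Gbp8 and Gbp9, which lie together on chromosome 5, were all higher in mCherry+ cells by the sign of the mean, with a median difference of 0.82. Of the chromosome 3 members, Gbp2, Gbp3 and Gbp5 were lower and Gbp7 was higher, with a median of -0.32. Gbp11 on chromosome 5 and Gbp2b on chromosome 3 were also measured but are not members. The list that holds both ranged from -0.27 to 0.51, so Gbp11 differed by less than each chromosome 5 member. That range spans 0 and the sign of Gbp11 is not given here, so the pattern is stated for the chromosome 5 members alone. Neighbouring Gbp genes are close paralogs whose probes may share signal, so each single value is uncertain to that extent.

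Gbp4 stood at 5.41, 5.11, 5.00, 5.76 and 5.52 in mCherry+ cells of numbers 1 to 5 and at 5.31, 4.16, 3.79, 4.42 and 3.79 in mCherry- cells. The mCherry- array 1 lay within the mCherry+ range and the other 4 lay below it. The difference was 1.06 (SE 0.27), 2.09-fold, with a limma adjusted p of 0.193, and 0.0453 with the block (SE 0.21). Every mCherry- value, mCherry+ 2 and mCherry+ 3 lay below the median of all genes (5.36), so the fold is uncertain.

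Gbp8 was at 6.17, 6.29, 6.19, 6.35 and 6.07 in mCherry+ and at 6.19, 5.16, 4.57, 5.33 and 5.23 in mCherry- cells, a difference of 0.92 (SE 0.24), 1.89-fold (limma adjusted p = 0.203, and 0.0871 with the block). The mCherry+ arrays were close together, with an SD of 0.11 against 0.58 in mCherry- cells. Gbp6 was at 5.91, 5.50, 5.36, 6.06 and 5.74 in mCherry+ and at 6.03, 4.35, 4.68, 4.81 and 5.10 in mCherry- cells, 0.72 (SE 0.27) higher, and Gbp9 at 7.79, 7.85, 7.81, 6.77 and 7.47 in mCherry+ and at 8.02, 6.52, 7.20, 6.49 and 6.0 in mCherry- cells, 0.69 (SE 0.36) higher. Neither passed the test (limma adjusted p = 0.535 and 0.752, and 0.142 and 0.306 with the block). The mean of Gbp6 over the reporter arrays lay below the median of all genes. In all 4 genes the mCherry- array 1 stood at mCherry+ levels, and for Gbp9 above them.

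Averaged over the 4 chromosome 5 genes, the mCherry+ arrays lay between 6.09 and 6.32, mCherry- 1 at 6.39 and the other 4 mCherry- arrays between 5.03 and 5.26. Without the arrays numbered 1 and with the block, Gbp4 differed by 1.31 (SE 0.14, limma adjusted p = 0.0159), Gbp8 by 1.15 (SE 0.16, adjusted p = 0.0316), Gbp6 by 0.93 (SE 0.15, adjusted p = 0.045) and Gbp9 by 0.92 (SE 0.23, adjusted p = 0.187). These 3 members were called higher and 0 lower, where 0.477% of all genes were called higher and 0.318% lower. Leaving out any other number with the block ended the Gbp4 call (adjusted p = 0.125 to 0.155). The arrays numbered 1 also had the lowest epithelial mean. Each had the highest eosinophil list mean of its group (7.13 on mCherry+ 1 and 7.76 on mCherry- 1). Their mean of 10 T, NK and ILC markers was the highest (6.05 on mCherry+ 1 and 6.13 on mCherry- 1, against 5.17 to 5.87 elsewhere). The part of these marker lists in the Gbp levels was not tested.

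On chromosome 3, Gbp3 stood at 4.19, 4.26, 4.60, 4.51 and 4.30 in mCherry+ and at 4.61, 4.73, 4.66, 4.99 and 4.85 in mCherry- cells. It was the 1 member whose groups did not overlap, where 1.07% of all genes were lower and 0.832% higher without overlap, and mCherry+ 3 and mCherry- 1 nearly touched. Its difference was -0.40 (SE 0.11, limma adjusted p = 0.247, and 0.13 with the block), and all its values lay below the median of all genes.

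Gbp2, which in mice acts on the vacuole of Toxoplasma, was at 5.61, 5.63, 5.49, 5.80 and 5.28 in mCherry+ and at 6.59, 5.40, 5.82, 6.94 and 6.80 in mCherry- cells. The mCherry- arrays 1, 3, 4 and 5 stood above every mCherry+ array, number 3 barely so, and mCherry- 2 did not. The difference was -0.75 (SE 0.28, limma adjusted p = 0.511, and 0.237 with the block), or 1.68-fold lower in mCherry+ cells. Gbp5, which promotes inflammasome assembly in mouse macrophages, differed by -0.24 (SE 0.26; -0.41 without the arrays numbered 1) and Gbp7 by 0.33 (SE 0.27), each with overlapping groups. The neutrophil marker mean, which S100a8 and S100a9 carry, was 5.06 to 5.25 in mCherry+ and 5.86 to 6.76 in mCherry- cells, and its part in the Gbp2 and Gbp3 levels was not tested.

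**Figure D2:**
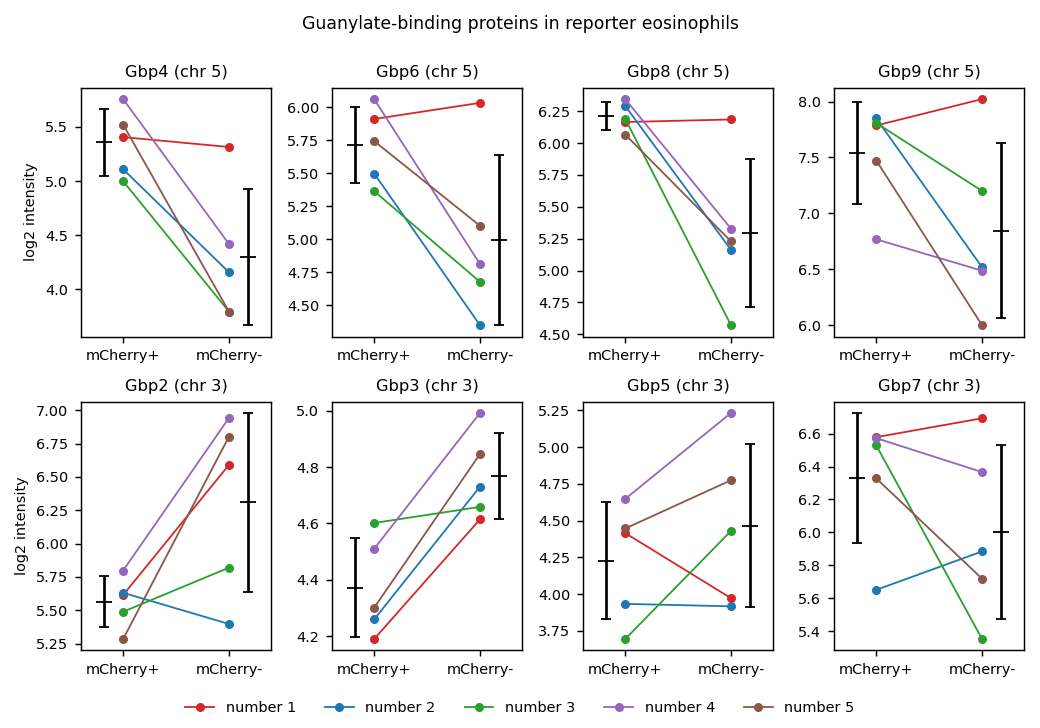
Log2 intensity of the 8 guanylate-binding proteins in mCherry+ and mCherry- eosinophils, with same-numbered arrays joined and the mean and SD of each group in black (n = 5 each). The mCherry- array 1 (red) sits at the mCherry+ level for Gbp4, Gbp6, Gbp8 and Gbp9, and Gbp3 is the panel with no overlap between groups.

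The promoters of the chromosome 3 genes are shown because their starts carry the letters of interferon motifs, beside that of Stat2, the member outside the Gbp genes with the widest difference, and of Isg15, a type I target for comparison. RefSeq promoters (build GRCm38.p6, 250 bases before to 50 after the start) were found for 21 members. There was no entry for Usp18, Mx1, Mx2, Rtp4, Oas2, Gbp4, Gbp6, Gbp8 and Gbp9. Capitals mark GAAANNGAAA or, on the other strand, TTTCNNTTTC, a core of the interferon-stimulated response element, and TTCNNNGAA, a gamma-activated site that reads alike on both strands. Each sequence ends 1 base before the start and runs 5′ to 3′ along the gene's strand.
Gbp2, chr3:142620513-142620662, plus strand: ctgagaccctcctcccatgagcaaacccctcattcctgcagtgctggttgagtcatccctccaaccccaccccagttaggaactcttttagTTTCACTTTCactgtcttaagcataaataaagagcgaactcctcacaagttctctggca
Gbp3, chr3:142559894-142560043, plus strand: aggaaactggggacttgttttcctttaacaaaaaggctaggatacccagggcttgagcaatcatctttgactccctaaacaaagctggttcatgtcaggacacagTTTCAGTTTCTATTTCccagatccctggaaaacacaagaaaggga
Gbp5, chr3:142496684-142496933, plus strand: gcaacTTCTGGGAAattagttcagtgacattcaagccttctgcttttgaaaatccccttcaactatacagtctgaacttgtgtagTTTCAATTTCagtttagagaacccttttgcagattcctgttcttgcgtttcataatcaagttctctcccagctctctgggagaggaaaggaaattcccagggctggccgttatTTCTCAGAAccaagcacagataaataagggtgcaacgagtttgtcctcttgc
Gbp7, chr3:142530186-142530335, plus strand: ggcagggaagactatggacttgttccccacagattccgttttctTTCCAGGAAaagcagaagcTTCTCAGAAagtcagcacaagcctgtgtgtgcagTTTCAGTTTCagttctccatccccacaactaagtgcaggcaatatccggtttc
Stat2, chr10:128270248-128270497, plus strand: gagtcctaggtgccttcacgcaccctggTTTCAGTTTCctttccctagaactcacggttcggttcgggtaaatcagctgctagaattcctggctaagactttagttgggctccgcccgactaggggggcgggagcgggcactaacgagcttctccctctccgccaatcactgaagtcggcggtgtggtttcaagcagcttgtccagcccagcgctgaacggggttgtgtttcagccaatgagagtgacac
Isg15, chr4:156200819-156200968, minus strand: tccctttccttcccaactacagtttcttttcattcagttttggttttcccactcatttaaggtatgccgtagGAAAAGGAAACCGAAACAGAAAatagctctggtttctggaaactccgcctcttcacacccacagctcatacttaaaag

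The response element core was in 13 of 21 members with a promoter, against 3.99% of the 27025 genes of the whole table. It lay 59 bases before the start in Gbp2, 45 and 39 in Gbp3, 165 in Gbp5, 53 in Gbp7, 222 in Stat2, and 78, 72 and 66 in Isg15, and the matches within Gbp3 and within Isg15 overlap. It was also found before the start of Ifit1, Ifit3, Rsad2, Oas1a and Oas3, and after the start of Ddx58 and Ifih1. The gamma-activated site letters were in 5 members (Gbp5, Gbp7, Oas1a, Irf1 and Ifit2), against 9.55% of all genes, and no match of 1 motif overlapped the other in these promoters. Gbp2 and Gbp3, at lower values in mCherry+ cells, and Stat2, at higher values, all held the core, and these letters describe the sequence only.

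The rest of the pathway was read from lists of ligands, receptors and signalling proteins, sensors, immunity-related GTPases and other targets, of which 103 of 108 genes were measured in the reporter table. Of these, 0 were called in either direction, and with the block 1 was higher and 0 lower, a share near the background of 1.01% higher and 0.748% lower. That gene was Pias1, which restrains cytokine signalling, at 8.20, 7.96, 8.38, 7.62 and 8.36 in mCherry+ and 7.94, 7.17, 7.23, 6.33 and 7.52 in mCherry- cells, higher in every pair by 0.86 (SE 0.28, limma adjusted p = 0.388, and 0.0446 with the block). The median over the 103 genes was 0.01, and 0.02 without the arrays numbered 1.

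The 17 interferon ligands had a mean between 4.57 and 4.86 on the reporter arrays, under the median of all genes. Ifng and Ifnk had the widest differences among them, 0.19 (SE 0.17) and 0.41 (SE 0.22), and Ifnk, highest on mCherry+ 1, differed by 0.14 without the arrays numbered 1. Among 15 receptors and signalling genes, 1 was higher and 5 were lower in every pair, where 5.97% of all genes were higher and 5.95% lower. Ifnar1, a chain of the type I receptor, stood at 7.96, 7.98, 7.92, 7.59 and 7.98 in mCherry+ and at 9.36, 8.65, 8.44, 8.12 and 8.36 in mCherry- cells, with no overlap. Its difference was -0.70 (SE 0.22), 1.62-fold lower in mCherry+ cells (limma adjusted p = 0.368, and 0.0881 with the block). Of the 103 pathway genes, 1 was higher and 2 were lower without overlap, where 0.832% of all genes were higher and 1.07% lower.

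Ifnar2, the other chain, and Ifngr2, a chain of the interferon gamma receptor, were chosen after their values were seen. Ifnar2 was at 10.02, 9.72, 9.74, 9.18 and 9.98 in mCherry+ and 10.67, 10.25, 10.15, 9.71 and 10.08 in mCherry- cells, a difference of -0.44 (SE 0.20, limma adjusted p = 0.682, and 0.0714 with the block). Ifngr2 was at 9.45, 9.88, 9.81, 10.07 and 9.86 in mCherry+ and 10.52, 10.33, 10.24, 10.14 and 10.21 in mCherry- cells, without overlap, a difference of -0.47 (SE 0.14, adjusted p = 0.319, and 0.17 with the block). Tyk2 (-0.43, SE 0.16, adjusted p = 0.541) and Socs3, which inhibits JAK signalling (-0.54, SE 0.32, adjusted p = 0.818), were the other 2 genes lower in every pair, also named after their values were seen.

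**Figure D3:**
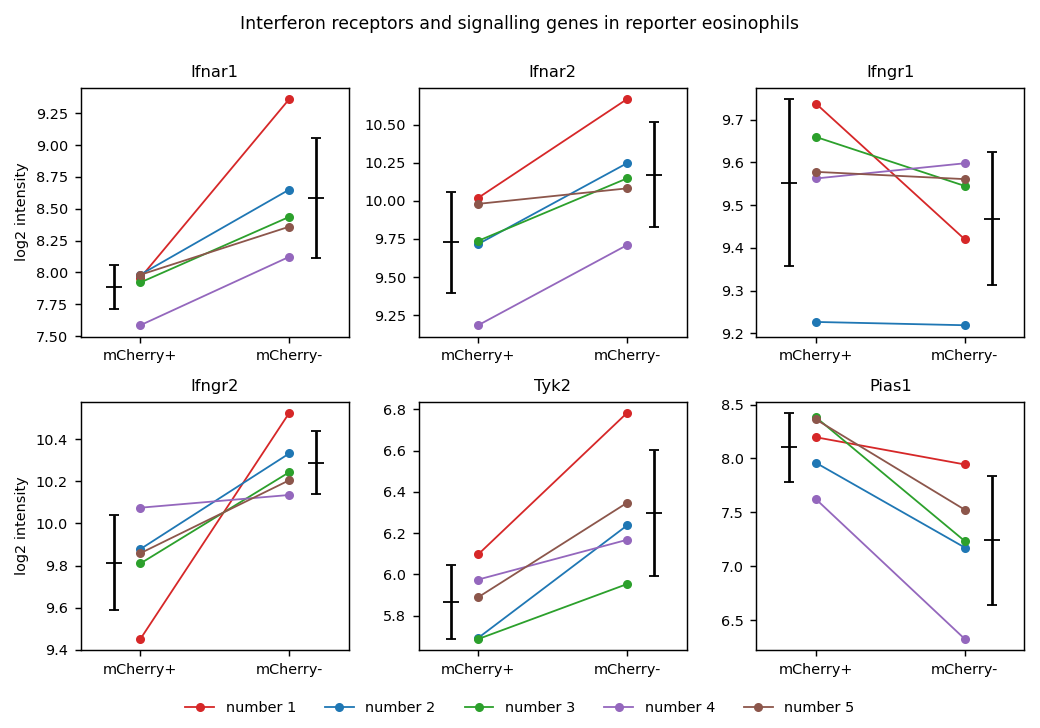
Log2 intensity of interferon receptor chains and of the signalling genes Tyk2 and Pias1 in mCherry+ and mCherry- eosinophils, with same-numbered arrays joined and the mean and SD of each group in black (n = 5 each). Ifnar1 and Ifngr2 do not overlap between the groups (1.07% of all genes were lower without overlap). Ifngr1 goes both ways, and Pias1 is higher in mCherry+ cells in every pair.

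Among the sensing genes, Mavs, the adaptor of RIG-I and MDA5, differed by -0.46 (SE 0.40; -0.76 without the arrays numbered 1) and Irf5 by -0.42 (SE 0.23). The GTPases Tgtp1 and Iigp1, which act on vacuoles of intracellular microbes in mice, differed by 0.51 (SE 0.42) and 0.43 (SE 0.39), the second by 0.66 without the arrays numbered 1. Of 48 other targets, Cxcl10, a chemokine that draws T cells, had the widest difference. It stood at 7.80, 6.37, 6.56, 8.30 and 7.60 in mCherry+ and 8.98, 8.48, 9.29, 8.04 and 8.93 in mCherry- cells, lower in 4 of 5 pairs with number 4 the exception. The difference was -1.42 (SE 0.38), 2.67-fold lower in mCherry+ cells, with a limma adjusted p of 0.221 (0.125 with the block). Slfn8 was 0.59 (SE 0.19) higher (adjusted p = 0.412, and 0.111 with the block).

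The 3 other arrays compared cells sorted on Clec4a4 itself, without replicates, so there is no test. Ahr was at 11.12 on the array labelled Ahr KO Clec4a4-, 11.11 on the WT Clec4a4+ array and 11.08 on the WT Clec4a4- array. The probe set therefore shows no loss in the library labelled Ahr KO; the labels do not place the deletion, and a probe set outside it checks nothing. The AHR target Cyp1b1 was at 4.46 in the Ahr KO library, 4.92 in WT Clec4a4+ and 4.70 in WT Clec4a4- cells, near or below the median of 4.80. Clec4a4 was at 3.93 in the Ahr KO library, 9.14 in WT Clec4a4+ and 5.56 in WT Clec4a4- cells, so the WT arrays differ in the direction of their sort labels. The mean of 20 epithelial markers was 5.51 to 5.77 on these arrays.

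Between the WT arrays, 2 members were 2-fold or more higher in Clec4a4+ cells and 0 lower, where 0.64% of all genes were higher and 1.03% lower by that rule, which uses the values as measured and asks that the higher one reach the median. With the dimmer value set to the median, Gbp9 alone of the 2 reached 2-fold. Gbp9 was at 7.25 in WT Clec4a4+ and 6.21 in WT Clec4a4- cells, 2.06-fold higher. Gbp4 was at 5.25 in WT Clec4a4+ and 4.24 in WT Clec4a4- cells, at least 1.37-fold higher when the dimmer value is set to the median. Gbp8 was at 4.41 in WT Clec4a4+ and 3.35 in WT Clec4a4- cells, both below the median, and Gbp6 at 3.02 on both arrays, so no fold is given for either.

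Just short of 2-fold were Ifih1 (7.68 in WT Clec4a4+ and 6.78 in WT Clec4a4- cells), Stat2 (7.31 in WT Clec4a4+ and 6.41 in WT Clec4a4- cells) and Oasl2 (7.59 in WT Clec4a4+ and 6.69 in WT Clec4a4- cells). Isg15 stood at 8.41 in WT Clec4a4+ and 8.54 in WT Clec4a4- cells, and Rtp4 at 6.73 in WT Clec4a4+ and 6.68 in WT Clec4a4- cells. The median over the 30 members was 0.04, against 0.00 over all genes, and 9 members lay below the median of the table on all 3 arrays. Ifnar1 was at 6.77 in WT Clec4a4+ and 7.99 in WT Clec4a4- cells, 2.33-fold lower, and Cxcl10 at 5.61 in WT Clec4a4+ and 7.07 in WT Clec4a4- cells, 2.76-fold lower.

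The reporter sort and the WT sort share no arrays. Across the 30 members, 21 had the same sign in both (70.0%, against 52.78% of the 20845 genes in both tables), and Pearson's r across genes was 0.66 (0.37 over all genes). Genes are not independent replicates and neighbouring Gbp genes may share signal, so these are descriptions. Stat2, Gbp4, Gbp8 and Gbp9, chosen after their values were seen, had the higher value in mCherry+ and in WT Clec4a4+ cells, but on the WT arrays both Gbp8 values and the Clec4a4- value of Gbp4 lay below the median. Gbp3 was lower in mCherry+ cells in every pair, while on the WT arrays it was at 4.78 in Clec4a4+ and 4.53 in Clec4a4- cells, both below the median, so no direction is read there.

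**Figure D4:**
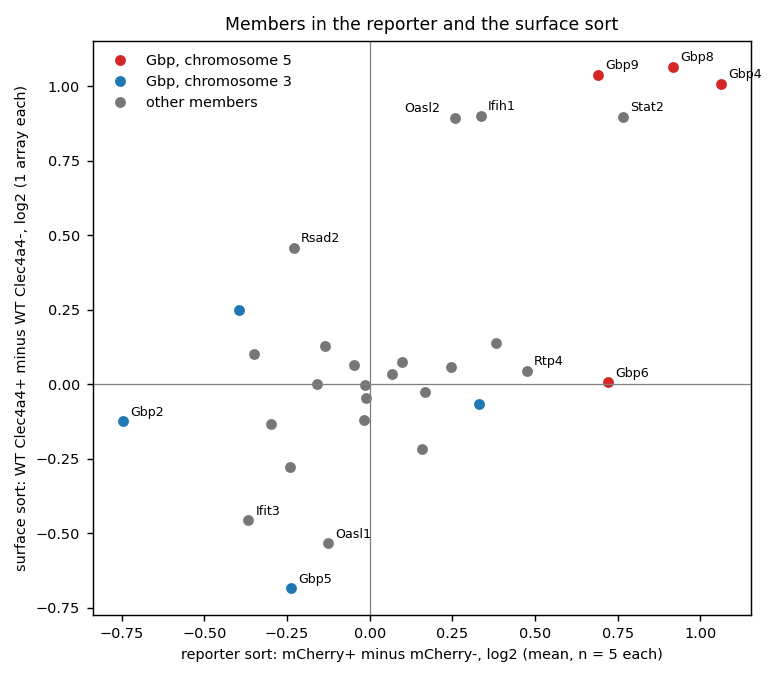
Difference of each of the 30 members in the reporter sort (mCherry+ minus mCherry-, mean over n = 5 each) against its difference in the WT sort (Clec4a4+ minus Clec4a4-, 1 array each), in log2 intensity. Gbp4, Gbp8, Gbp9 and Stat2 lie at the upper right, with Gbp6 near 0 in the WT sort.

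The array labelled Ahr KO Clec4a4- was set against each WT array, and both comparisons share that array. Against WT Clec4a4- cells, 3 members were 2-fold or more higher and 1 was lower, where 0.596% of all genes were higher and 0.772% lower. Gbp4 was at 6.10 in the Ahr KO library, 5.25 in WT Clec4a4+ and 4.24 in WT Clec4a4- cells, at least 2.45-fold higher than in WT Clec4a4- cells. Gbp8 was at 5.55 in the Ahr KO library, 4.41 in WT Clec4a4+ and 3.35 in WT Clec4a4- cells, at least 1.67-fold higher than in either and thus not shown to reach 2-fold.

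Oasl2 was at 7.78 in the Ahr KO library, 7.59 in WT Clec4a4+ and 6.69 in WT Clec4a4- cells, and Ifih1 at 7.71 in the Ahr KO library, 7.68 in WT Clec4a4+ and 6.78 in WT Clec4a4- cells. For these genes the Ahr KO library, sorted as Clec4a4-, stood close to the WT Clec4a4+ array, while for Stat2, at 6.55, it stood close to the WT Clec4a4- array, at 6.41. Usp18 was at 5.19 in the Ahr KO library, 6.49 in WT Clec4a4+ and 6.43 in WT Clec4a4- cells, 2.47-fold lower than in WT Clec4a4+ and 2.36-fold lower than in WT Clec4a4- cells. Against WT Clec4a4+ cells, 1 member (Gbp8) was higher and 1 (Usp18) lower, where 0.496% of all genes were higher and 0.496% lower. Isg15, whose conjugates USP18 removes, was at 8.37 in the Ahr KO library, 8.41 in WT Clec4a4+ and 8.54 in WT Clec4a4- cells.

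Among the other pathway genes, Gbp10, a chromosome 5 neighbour with a value in this table alone, was at 8.56 in the Ahr KO library, 8.34 in WT Clec4a4+ and 7.45 in WT Clec4a4- cells. Ifnar1 was at 6.95 in the Ahr KO library, 6.77 in WT Clec4a4+ and 7.99 in WT Clec4a4- cells, 2.05-fold lower in the Ahr KO library than in WT Clec4a4- cells. Cxcl10 was at 4.92 in the Ahr KO library, 5.61 in WT Clec4a4+ and 7.07 in WT Clec4a4- cells, 4.44-fold lower than in WT Clec4a4- cells. The membrane proteins Ifitm1 and Ifitm2, which block viral entry, were at 8.63 and 11.04 in the Ahr KO library, 6.98 and 9.98 in WT Clec4a4+ cells, and 7.34 and 10.33 in WT Clec4a4- cells. Ifitm3, of the same family, was at 4.87 in the Ahr KO library, 5.66 in WT Clec4a4+ and 6.09 in WT Clec4a4- cells, so the 3 Ifitm genes did not move one way.

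**Figure D5:**
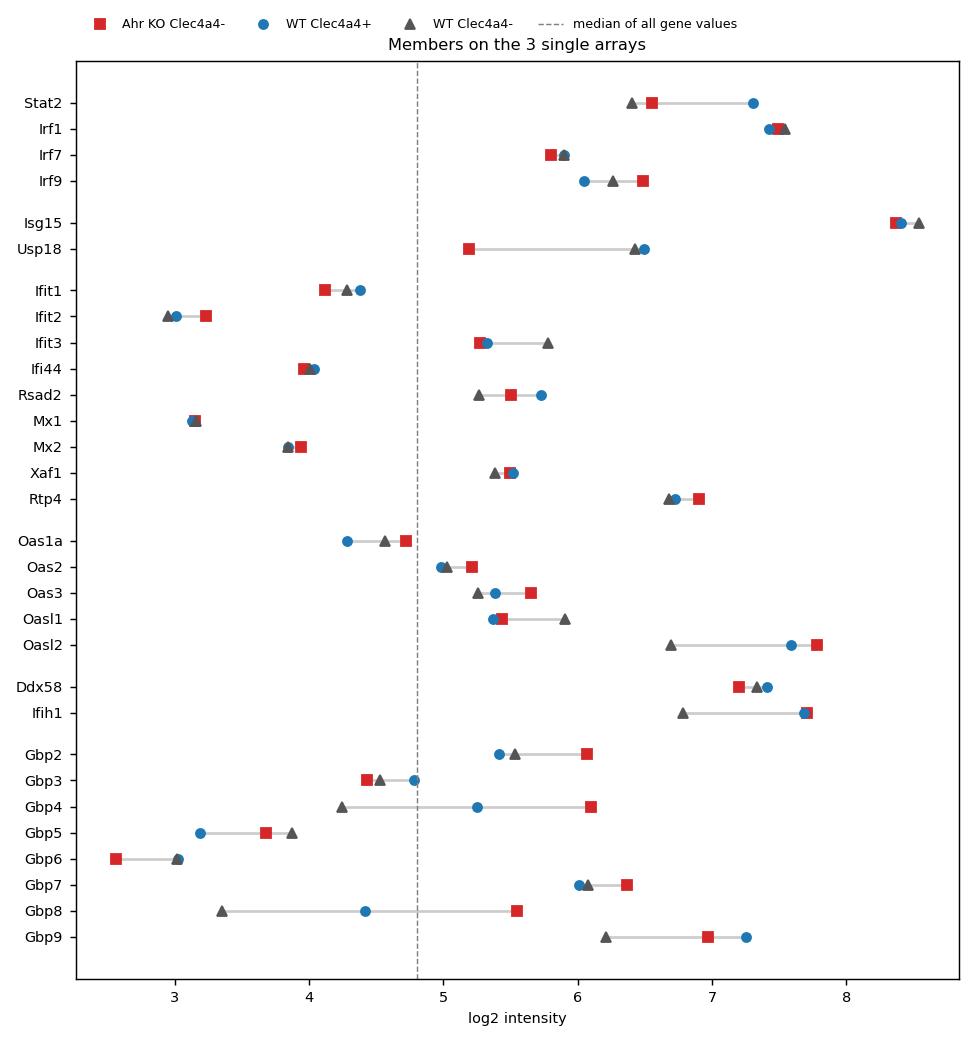
Log2 intensity of the 30 members on the single arrays of Ahr KO Clec4a4- (red squares), WT Clec4a4+ (blue circles) and WT Clec4a4- eosinophils (grey triangles), with the median of all gene values dashed. Gbp4, Gbp8, Oasl2 and Usp18 are the members whose Ahr KO value, as measured, lies 2-fold or more from that of WT Clec4a4- cells. The WT Clec4a4- values of Gbp4 and Gbp8 lie below the median, and Gbp8 is not shown to reach 2-fold.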

How the data were processed

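RNA of 13 sorted eosinophil samples was purified with an RNeasy Micro kit and amplified with NuGEN WT-Ovation PicoSL from 2 ng of total RNA, per the labels' protocols. The authors deposited log2 intensities, with RMA named per the submitters' processing notes, for 10 reporter arrays (35556 probe sets) and for the 3 other arrays (28360 probe sets) (RMA version and genome build: not given in the sources used here). Values of the deposited series matrix were the same.

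Probe sets were named by Entrez identifier or, failing that, a single RefSeq accession (RefSeq gene table, GRCm38.p6), and the brightest per gene was kept. Of the members, 27 were named by Entrez identifier and 3 (Isg15, Gbp2 and Gbp6) by accession in the reporter table. The mCherry comparison used limma 3.58.1 (R 4.3.3; lmFit, eBayes with trend and robust moderation, two-sided) with no covariate, Benjamini-Hochberg adjusted over 21395 genes, called at 0.05; it was tested on simulated data. All adjusted p-values are from this model or its blocked form. No filter on low values was applied. Deviations of same-numbered arrays from their group means correlated in each of the 5 pairs (0.659, 0.166, 0.171, 0.527 and 0.199). Of 10 arrays, 9 correlated best with their own number. The blocked value is therefore given where it changes a call and for some other genes. The labels do not say what the numbers stand for. On the single arrays a member counted as apart at 2-fold or more where the higher value reached 4.80, the median of the table.

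All 30 members were named, with pathway genes called in either fit, the 2 widest differences of each list, and those 2-fold apart on single arrays. The members and lists were chosen with earlier results of these data known. Alternatives covered the block, left-out arrays, moderation, centring, dim genes, probe-set means and the fold threshold.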

Additional observations from a re-analysis of the deposited data

Results flagged for a closer look

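Within a reporter group, 6 of 86 sets of 5 values held a sample far from the others, where chance gives about 1 in 20. Ifit2 was highest on mCherry+ 1 (3.98, next 3.24) and, among mCherry- arrays, on mCherry- 4 (3.33, next 3.04). Gbp7 was lowest on mCherry+ 2 (5.65, next 6.33). Ifnk was highest on mCherry+ 1 (4.98, next 3.99). Ifnar1 was lowest on mCherry+ 4 (7.59, next 7.92), and Irf5 was lowest on mCherry- 4 (7.33, next 8.21). Gbp3 had values of opposite sign in the sorts: -0.40 in the reporter sort, lower in 5 of 5 pairs, and 0.25 between WT Clec4a4+ and WT Clec4a4- cells. Both WT values lie below the median of their table, so they set no direction, and the difference was not tested.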

How the results depend on the processing

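Members called: with the replicate block 1 member was called higher. Without both arrays of number 1 there were 3 with the block (Gbp4, Gbp6 and Gbp8) and, in an alternative chosen after seeing the data, 2 without it (Gbp4 and Gbp8, adjusted p = 0.0482 and 0.0461). Leaving out each array in turn gave 0 to 2 higher and 0 lower; the 2 were Gbp4 and Gbp8 without mCherry- 1 (limma adjusted p = 0.0198 and 0.0199). Over all genes 31 were called higher and 45 lower; the block gave 216 and 160, number 1 out with the block 102 and 68, genes at or above the table median 53 and 69, and each array left out in turn 8 to 68 higher and 21 to 61 lower. The member median was 0.13 among genes at or above the table median, 0.12 and 0.10 without number 2 and number 3 (with the block, chosen after seeing the data), and -0.0004 to 0.0854 with each array left out. On the single arrays, centring left 1 member 2-fold higher in WT Clec4a4+ than in WT Clec4a4- cells. At 1.5-fold there were 5 higher in that pair, 5 higher in the Ahr KO library than in WT Clec4a4- cells, and 3 higher and 2 lower than in WT Clec4a4+ cells. No called member changed sign. The block changed no other member's call. Limits: the Gbp result rests on numbers 2 to 5, the arrays with the higher epithelial means. Within each group these arrays also had the lower eosinophil list means. Further, 12 members are dim, and the single arrays have no replicate.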
